A study of Mus musculus with 6 samples.

Results

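The genes described here encode the enzymes of the tricarboxylic acid (TCA) cycle, the steps that bring pyruvate, glutamate and citrate into or out of it, and Acod1, which diverts a cycle intermediate to itaconate. They were taken from a list of 38 names, matched to the deposited counts by their Ensembl identifiers, and 37 of them held at least 60 counts summed over the 6 libraries and were used, of 25044 genes in the table and 11286 genes tested. The remaining member, Pdk4, had 0 counts in every library, which allows up to 3 counts, or 0.153 to 0.172 CPM (counts scaled to a common library size), in each (counting error only). The libraries came from wild type C57BL/6 mice aged 8 weeks. Peritoneal macrophages were washed out 3 days after thioglycollate, an irritant that recruits monocyte-derived macrophages, left to adhere for 1 h and cultured for a further 24 h. In the vehicle group (3 libraries) the cells received DMSO, and in the trametinib group (3 libraries) trametinib at 100 nM, which blocks MEK1 and MEK2, the kinases that activate ERK. After 2 h both groups received LPS, a bacterial ligand of TLR4, at 100 ng/ml for 12 h. All 6 libraries therefore carry LPS, and a change is one that trametinib made in LPS-treated cells. The labels give 3 mice for the study and do not say which library came from which animal, so p-values measure the spread between these libraries, which may be partly technical.

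Pyruvate enters mitochondria through a carrier of the subunits Mpc1 and Mpc2, and the pyruvate dehydrogenase complex turns it into acetyl-CoA. Kinases of the PDK family switch that complex off by phosphorylation, and phosphatases such as Pdp1 switch it on again. The cycle then runs from citrate through isocitrate, alpha-ketoglutarate, succinate, fumarate and malate back to oxaloacetate. In macrophages activated by LPS, the mitochondrial enzyme encoded by Acod1 converts cis-aconitate, the intermediate between citrate and isocitrate, to itaconate, which inhibits succinate dehydrogenase and restrains inflammation and bacterial growth.

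With trametinib, Acod1 fell to 51.6% of its vehicle level, and the genes that control the pyruvate dehydrogenase complex moved in opposite directions: the kinases Pdk1, Pdk2 and Pdk3 rose 1.501-fold, 2.19-fold and 1.89-fold, and the phosphatase Pdp1 fell 3.09-fold. Within the cycle, the catalytic subunit gene Idh3a and the core subunit gene Dlst fell, while most other cycle genes differed by less than their spread allowed a call. Of the 37 members, 6 rose and 7 fell. This was 16.2% and 18.9% of the members, beside 15.8% higher and 18.4% lower of all 11286 genes tested, so the share of members called was near that of the whole table. The median log2 fold change was −0.002 over the members and −0.005 over all genes tested. The median absolute change was 0.182 and 0.249. The vehicle and trametinib libraries did not overlap in 23 members (62.2%), against 49.3% of all genes tested. The plot of fold changes by role shows the 13 called members among the rest.

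**Figure D1:**
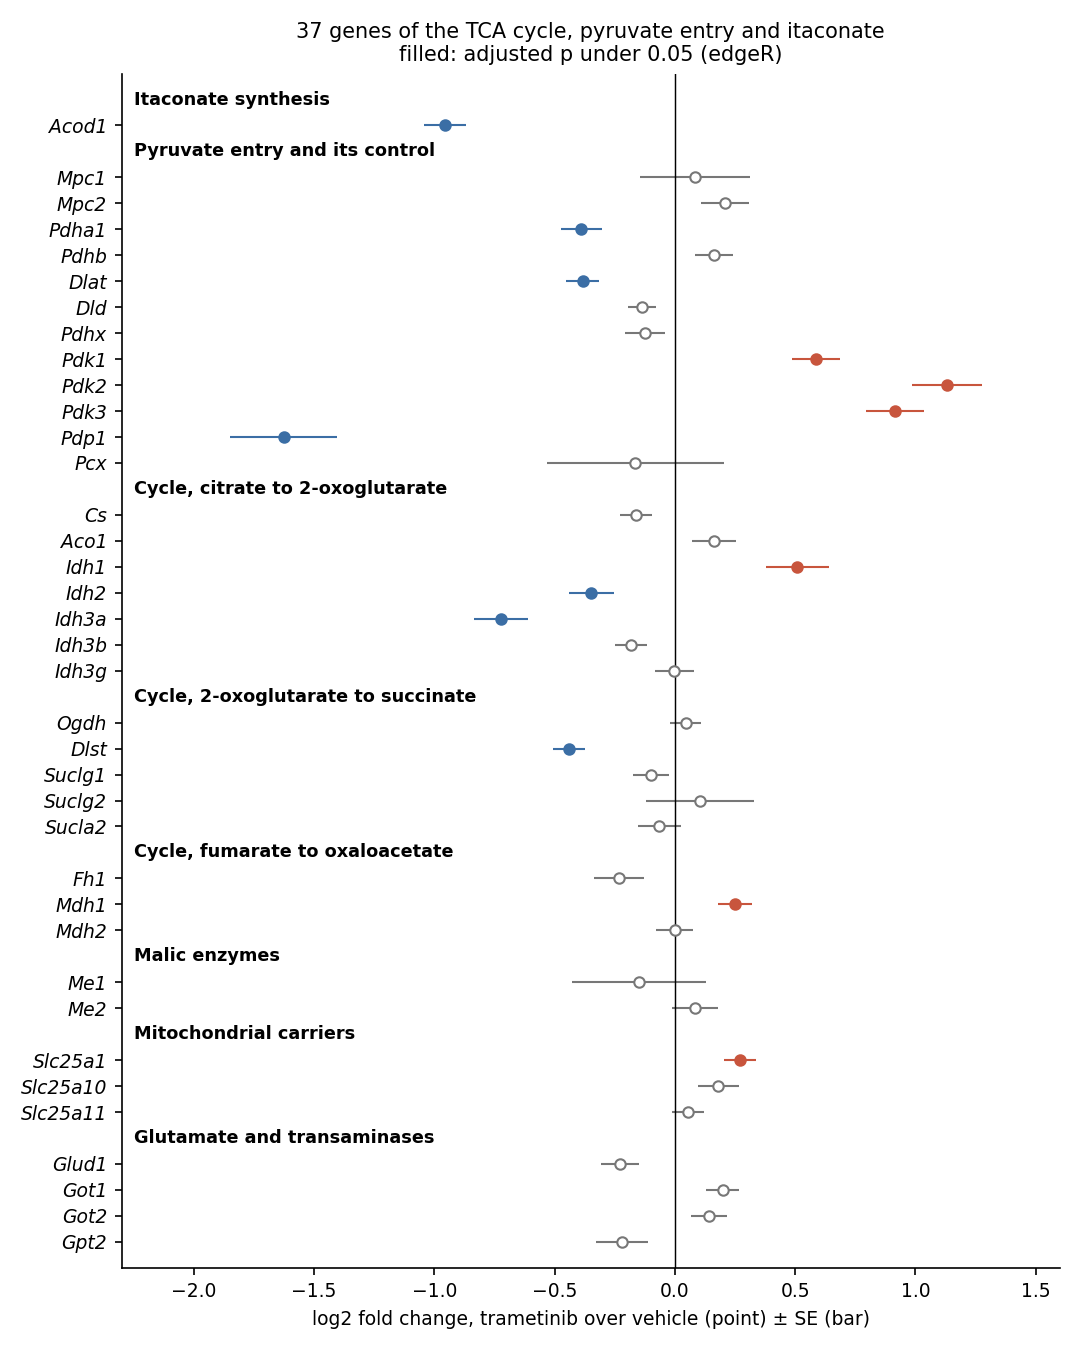
Log2 fold change of each of the 37 members, trametinib over vehicle (horizontal axis), with its standard error as a bar, grouped by role; filled points passed at an adjusted p under 0.05. The kinases Pdk1, Pdk2 and Pdk3 lie to the right of 0, between 0.586 and 1.131, and Pdp1 lies farthest to the left at −1.626, followed by Acod1 at −0.955.

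Library totals lay between 17453778 and 19648467 counts, and members other than Acod1 held 384 to 20175 counts over the 6 libraries. On the first principal component of all genes, vehicle replicate 3 lay nearer to the trametinib libraries than its group did (−16.2 against −39.3 and −38.1, with trametinib at 26.4 to 35.5). In 11 of the 13 called members it lay from the mean of the other vehicle libraries toward the trametinib mean. The exceptions were Dlst and Mdh1. Without vehicle replicate 3, 8 members rose and 8 fell, and the 13 calls were among them. Over all genes tested, that run called 2210 higher and 2453 lower, against 1787 and 2082 with all 6 libraries. The cells carried macrophage markers (7 markers summing to 14010 to 16900 CPM), of which Mertk rose and Adgre1 and Itgam fell. B cell, T and NK cell, and fibroblast and mesothelium markers summed to at most 2.84 CPM in any library. Eosinophil markers summed to 0.702 to 3.25 CPM in vehicle and 0.828 to 1.83 CPM in trametinib libraries. Mast cell markers summed to 2.96 to 4.26 CPM in vehicle and 4.23 to 7.15 CPM in trametinib libraries, and Kit, the only one of them tested, did not pass. Neutrophil markers summed to 368 to 418 CPM in vehicle and 491 to 593 CPM in trametinib libraries. Nearly all of this was Csf3r, which rose from 382 to 552 CPM and which macrophages also express, whereas Retnlg had 0 counts, Ly6g reached 0.0557 CPM, S100a8 5.05 CPM and S100a9 3.12 CPM in their highest library. The share of counts on the mitochondrial genome was 1.76% in trametinib replicate 2 and 0.717% to 0.871% in the other libraries. Among the mitochondrial mRNAs, mt-Co2 held 110.5 CPM in vehicle replicate 2 and 2158 in trametinib replicate 2, against 3.02 to 6.27 CPM elsewhere. The replicate 2 libraries were likewise far above the rest for mt-Atp6 and mt-Co3, but not for mt-Nd1, mt-Nd2 and mt-Cytb. For mt-Nd4 they held 615 CPM (vehicle) and 896 CPM (trametinib), against 339 to 493 CPM elsewhere. For mt-Co1, trametinib replicate 2 alone stood out, at 9509 CPM against 3835 to 4811 CPM. The part of these differences in the results was not tested.

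Acod1 and the 3 rising kinase genes are among those the results turn on. The stretch before the start of each is printed 5′ to 3′ from RefSeq (mm10), with each CG dinucleotide in capitals. Each stretch ends before the first base of the RefSeq and GENCODE transcripts.
Acod1 (chr14:103046762-103046976, plus strand): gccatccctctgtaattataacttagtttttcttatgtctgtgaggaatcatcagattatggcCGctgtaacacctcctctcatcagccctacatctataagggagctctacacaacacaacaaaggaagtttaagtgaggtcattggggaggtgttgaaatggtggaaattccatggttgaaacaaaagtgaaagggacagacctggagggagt
Pdk1 (chr2:71872974-71873223, plus strand): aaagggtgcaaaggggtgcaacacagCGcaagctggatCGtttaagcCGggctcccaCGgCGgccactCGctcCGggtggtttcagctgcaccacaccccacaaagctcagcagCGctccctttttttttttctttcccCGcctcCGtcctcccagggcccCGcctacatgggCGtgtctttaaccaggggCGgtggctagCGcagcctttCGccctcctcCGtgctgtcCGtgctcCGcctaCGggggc
Pdk2 (chr11:95041372-95041621, minus strand): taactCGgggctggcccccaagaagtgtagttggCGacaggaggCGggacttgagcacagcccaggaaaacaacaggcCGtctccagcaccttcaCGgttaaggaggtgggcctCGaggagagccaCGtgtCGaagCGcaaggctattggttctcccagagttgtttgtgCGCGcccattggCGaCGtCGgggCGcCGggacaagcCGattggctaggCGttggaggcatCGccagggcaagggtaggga
Pdk3 (chrX:93832202-93832400, minus strand): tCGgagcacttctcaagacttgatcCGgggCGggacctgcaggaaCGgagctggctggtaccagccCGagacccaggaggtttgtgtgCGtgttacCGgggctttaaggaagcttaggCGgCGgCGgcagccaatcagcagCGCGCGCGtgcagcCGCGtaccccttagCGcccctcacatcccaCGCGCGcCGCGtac
The Acod1 stretch held 1 CG in 215 bases, against 19 in 250 for Pdk1, 19 in 250 for Pdk2 and 22 in 199 for Pdk3. RefSeq promoter windows, from 250 bases before to 50 bases after the start, were found for 34 of the 37 members. Pdp1 and Idh3a, which fell, and Me2 had none. The observed over expected ratio of CG dinucleotides in these windows was 0.121 for Acod1, and the other 33 members all lay above it. The median was 0.835 over the 34 members and 0.384 over all 32851 promoter entries. Acod1 thus had the fewest CG dinucleotides for its base composition among the members, while Pdk1 and Pdk2 had ratios of 0.772 and 0.817, below the median of the members, and Pdk3 one of 1.01, above it. The other members that fell and had a window, Pdha1, Dlat, Idh2 and Dlst, had ratios of 0.741, 0.677, 0.571 and 0.871. Idh1, Mdh1 and Slc25a1, which rose, had 0.841, 0.796 and 0.845. These are descriptions of the sequence and carry no test.

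Acod1 (ENSMUSG00000022126, mm10 chromosome 14, 103046977 to 103056573, plus strand) encodes the decarboxylase that makes itaconate. Its normalised counts were 4833, 4940 and 4067 CPM in vehicle replicates 1, 2 and 3, and 2309, 2387 and 2442 CPM in trametinib replicates 1, 2 and 3. The groups did not overlap, vehicle replicate 3 was the lowest vehicle library, and the trametinib libraries lay close together. The log2 fold change was −0.955 (SE 0.088, edgeR adjusted p 0.000268), and −1.038 without vehicle replicate 3. In bulk RNA, less transcript per cell cannot be told apart from fewer cells that carry it. Compared between genes per kb of exon, Acod1 stood far above every other member: 1759 ± 182 CPM per kb in vehicle and 907 ± 25.4 in trametinib libraries (SD, n = 3 each). That was 27.7-fold and 13.7-fold the level of the next member, Slc25a11. With the longest transcript in place of the union of exons Acod1 was again first, but in vehicle libraries Mdh2 came next, ahead of Slc25a11. Acod1 made up 78.5% of the summed level per kb of the 37 members with vehicle and 64.9% with trametinib. The other 36 members together held 1810 ± 40.9 CPM with vehicle and 1786 ± 34.2 CPM with trametinib, so their sum differed by less than the spread between replicates.

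**Figure D2:**
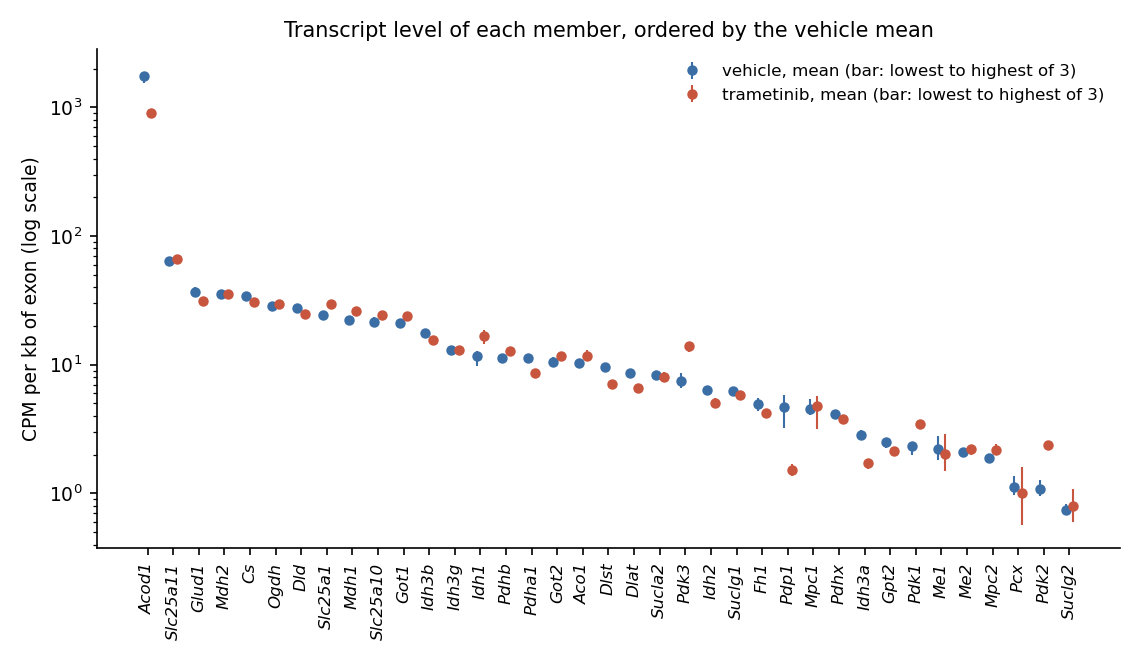
Transcript level of the 37 members in CPM per kb of exon (vertical axis, log scale), ordered by the vehicle mean; points are group means and bars run from the lowest to the highest of the 3 libraries. Acod1 lies above all others in both groups, and the points of Pdk3, Pdk1 and Pdk2 separate upward and those of Pdp1 and Idh3a downward with trametinib.

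Below Acod1, the order of levels per kb in vehicle libraries ran from Slc25a11, the carrier that exchanges alpha-ketoglutarate for malate, at 63.6 CPM per kb, through Glud1 (36.9), Mdh2 (35.5) and Cs (34.2), to Pcx (1.13), Pdk2 (1.09) and Suclg2 (0.746). Of the 36 pairs of neighbours in this order, 22 had overlapping ranges over the 3 vehicle libraries, among them Glud1 with Mdh2 and Mdh2 with Cs. By the longest transcript the order after Acod1 was Mdh2, Slc25a11, Cs and Glud1. Slc25a11 lay above the range of Glud1. Exons of Slc25a11 overlap those of Rnf167 on the opposite strand over 189 bases, 8.92% of its exon length. The strand setting of the counting is not given in the sources used here, so reads from that stretch cannot be told apart.

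The neighbours of the itaconate step were then set against Acod1. Cs, the citrate synthase gene upstream, held 196, 201 and 196 CPM with vehicle and 174, 180 and 177 CPM with trametinib. The groups did not overlap, but the log2 fold change of −0.162 (SE 0.068) had an adjusted p of 0.0960, which was 0.0436 with the replicate number as a block. Within each library, the log2 ratio of Acod1 to Cs was 4.54 ± 0.141 with vehicle and 3.75 ± 0.032 with trametinib (SD, n = 3 each), a difference of −0.788 (exact permutation p 0.10, two-sided, the smallest that 3 against 3 libraries can give). The difference was −0.770 against the sum of Idh3a, Idh3b and Idh3g, and −1.018 against the sum of Sdha, Sdhb, Sdhc and Sdhd. Each of these had the same exact permutation p of 0.10 (two-sided), which is 0.10 after Benjamini-Hochberg adjustment over the 8 ratios computed. Thus Acod1 was lower relative to each of these steps in every trametinib library than in every vehicle library, as the plot of ratios shows.

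**Figure D3:**
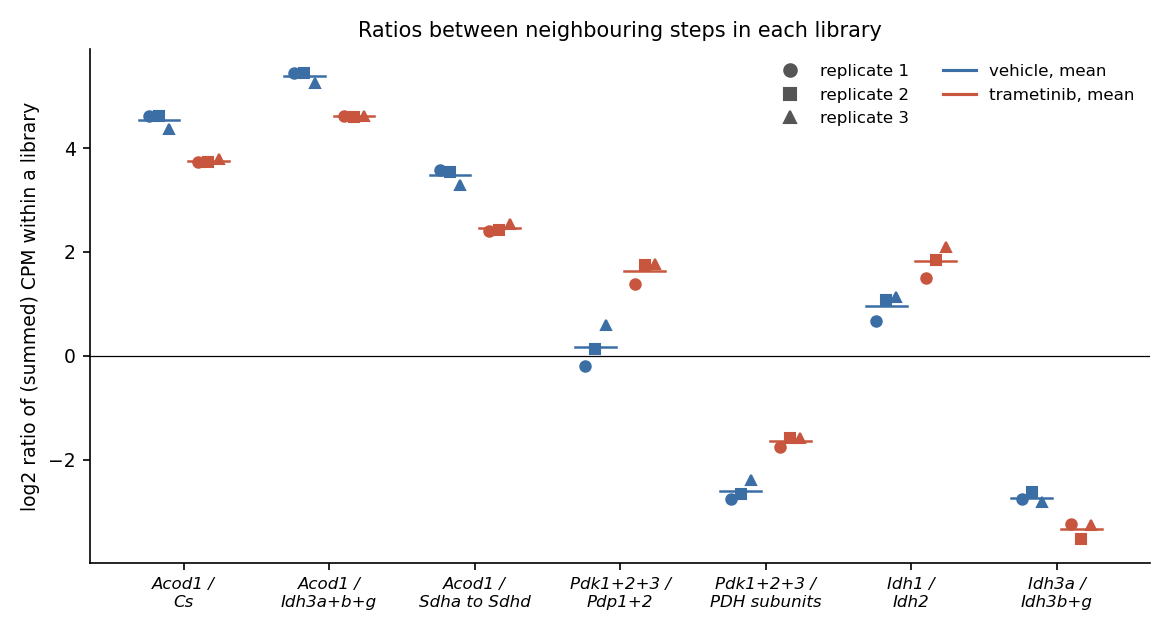
Log2 ratio of CPM, or of summed CPM, between genes of neighbouring steps (vertical axis) in each library; symbols mark the replicate number, colours the group, and lines the group means. The 3 ratios of Acod1 are lower in the trametinib libraries, the 2 ratios of the Pdk genes and Idh1 over Idh2 are higher, and Idh3a over Idh3b plus Idh3g is lower, with no overlap between groups.

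Succinate dehydrogenase, the enzyme that itaconate inhibits, had 1 of its 4 subunit genes called. Sdhb, the iron-sulfur subunit, rose from 101 ± 2.48 CPM with vehicle to 118 ± 3.97 with trametinib, a log2 fold change of 0.216 (SE 0.061, adjusted p 0.0243). Sdhb no longer passed when vehicle replicate 1 or 2 was left out (0.103 or 0.0626) or trametinib replicate 1 or 2 (0.111 or 0.0653). Sdha, Sdhc and Sdhd had log2 fold changes of 0.027, −0.139 and 0.172 and did not pass (adjusted p 0.810, 0.167 and 0.0784). With the replicate block, Sdhd had an adjusted p of 0.0445, and without vehicle replicate 3, Sdhc had 0.0341. Of 5 genes linked to the handling of itaconate or to the sensing of related metabolites, 3 were tested and 1 changed. Rab32, a small GTPase that brings Acod1 to bacterium-containing vacuoles, stood at 449, 459 and 355 CPM with vehicle and 145, 150 and 161 CPM with trametinib. The vehicle libraries lay above all trametinib libraries, with replicate 3 the lowest of the vehicle libraries, as for Acod1 (log2 fold change −1.471, SE 0.11, adjusted p 0.000141). Clybl, whose enzyme breaks down the carbon skeleton of itaconate, and Abcg2, an exporter, did not pass (log2 fold changes 0.221 and −0.196, adjusted p 0.491 and 0.626), and the receptors Sucnr1 and Oxgr1 had 0 counts.

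Pyruvate entry and its control held 6 of the 13 calls: of 12 tested members 3 rose, 3 fell and 6 did not pass. Over all 11286 genes tested, 15.8% were called higher and 18.4% lower. Whether this or any other role group differs from those shares was not tested. Pdk2, a kinase that inactivates pyruvate dehydrogenase (ENSMUSG00000038967), held 3.03, 3.24 and 4.05 CPM with vehicle and 7.22, 8.01 and 7.41 CPM with trametinib. Every trametinib library lay above every vehicle library, and the log2 fold change was 1.131 (SE 0.147, adjusted p 0.000839). Pdk3, a further kinase of the family, held 16.8, 17.9 and 22.3 CPM with vehicle and 32.3, 37.9 and 37.1 CPM with trametinib (log2 fold change 0.915, SE 0.119, adjusted p 0.000836). Its vehicle replicate 3 was again the vehicle library nearest to the trametinib libraries. Pdk1, a kinase also induced by hypoxia, held 15.6, 18.9 and 19.5 CPM with vehicle and 25.9, 27.3 and 27.9 CPM with trametinib, without overlap (log2 fold change 0.586, SE 0.099, adjusted p 0.00262).

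Pdp1, the catalytic subunit of the opposing phosphatase (ENSMUSG00000049225, chromosome 4, 11958184 to 11966452, minus strand), held 26.1, 22.7 and 14.4 CPM in vehicle replicates 1, 2 and 3 and 7.63, 6.66 and 6.18 CPM in the trametinib libraries. All trametinib libraries were lower, and vehicle replicate 3 lay 41.0% of the way, on the log2 scale, from the mean of the other vehicle libraries to the trametinib mean. Its log2 fold change was −1.626 (SE 0.222, adjusted p 0.00174), the lowest of the members. The second phosphatase gene, Pdp2, did not pass (14.9 ± 1.06 and 15.8 ± 1.34 CPM, adjusted p 0.550). Pdpr, a regulatory subunit of the phosphatase, rose with a log2 fold change of 0.433 (SE 0.144, adjusted p 0.0446), but its groups overlapped. Pdpr missed the threshold with limma-voom (0.0508) and when vehicle replicate 1 or 2 (0.136 or 0.146) or trametinib replicate 1 or 3 (0.109 or 0.133) was left out. Its adjusted p ran from 0.00573 to 0.146 over the alternatives. The summed CPM per kb of Pdk1, Pdk2 and Pdk3 over that of Pdp1 and Pdp2, a ratio chosen after the values were seen, was 1.14, 1.39 and 2.07 with vehicle and 3.85, 5.05 and 5.10 with trametinib. On the log2 scale this ratio differed by 1.639 between the group means (exact permutation p 0.10, two-sided), and every trametinib library lay above every vehicle library. In plain CPM, the scale of the plot of ratios, the difference was 1.469, and the ratio in vehicle replicate 1 was 0.868. Set against the summed CPM per kb of Pdha1, Pdhb, Dlat, Dld and Pdhx, also chosen after the values were seen, the 3 kinases had a log2 ratio higher by 1.03 with trametinib (exact permutation p 0.10, two-sided). In plain CPM it was higher by 0.96.

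Subunits of the pyruvate dehydrogenase complex itself split. Pdha1, the alpha subunit of its first enzyme and the substrate of the PDK kinases, fell from 41.9 ± 2.90 to 32.0 ± 2.20 CPM (a log2 fold change −0.389, adjusted p 0.00799). Pdhb, the beta subunit of the same enzyme, stood at 43.9 ± 3.72 and 49.1 ± 1.55 CPM and did not pass (adjusted p 0.149). Exons of Pdha1 overlap Map3k15 on the opposite strand over 603 bases, and Map3k15 itself had 20 to 36 counts per library. Dlat, the lipoate-bearing acetyltransferase core, fell from 41.8 ± 1.11 to 32.1 ± 1.19 CPM (log2 fold change −0.384, adjusted p 0.00361). Dld, the dehydrogenase shared with the alpha-ketoglutarate complex, and Pdhx, which binds it to the core, had log2 fold changes of −0.137 and −0.126 and did not pass (adjusted p 0.101 and 0.273), although their groups did not overlap. The pyruvate carrier genes did not pass: Mpc1 had a log2 fold change of 0.083 (SE 0.230, adjusted p 0.810) and Mpc2 one of 0.210 (SE 0.1, adjusted p 0.137). Nor did Pcx, which carboxylates pyruvate to oxaloacetate and whose trametinib libraries ranged from 2.69 to 7.69 CPM (adjusted p 0.762).

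**Figure D4:**
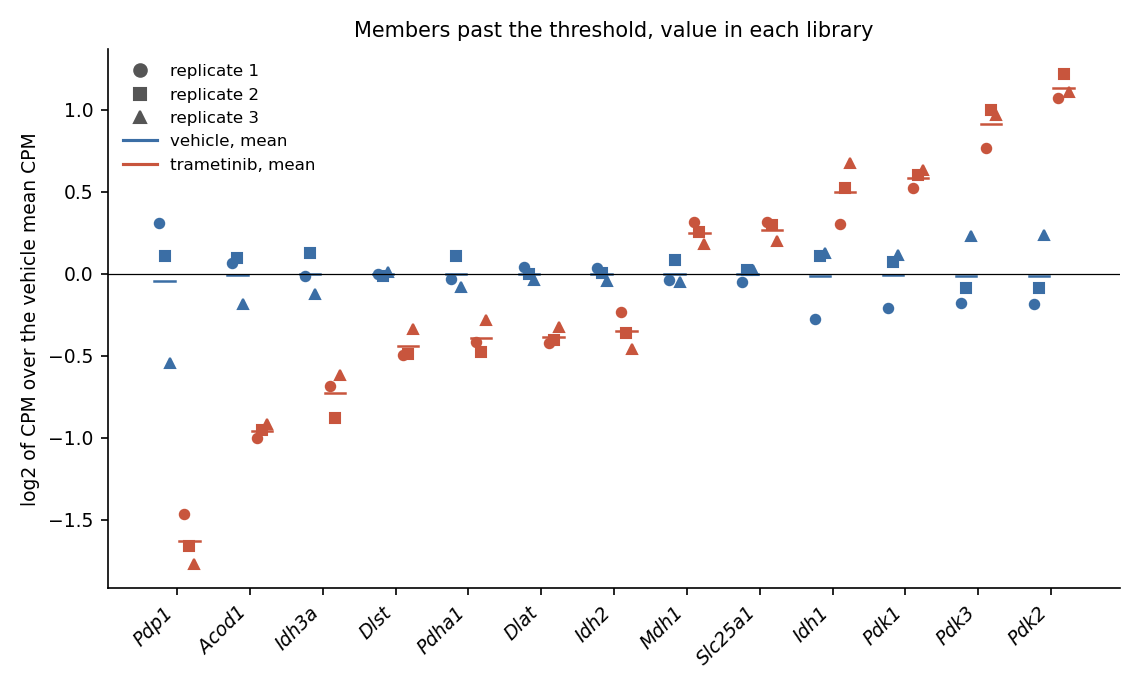
The 13 members past the threshold, with the log2 of each library's CPM over the vehicle mean CPM on the vertical axis; symbols mark the replicate number, colours the group, and lines the means of the log2 values. The groups do not overlap in any of the 13, and vehicle replicate 3 is the vehicle library nearest to trametinib for Pdp1, Acod1 and Pdk3.

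From citrate to alpha-ketoglutarate, 1 of 7 members rose, 2 fell and 4 did not pass. Idh3a, the catalytic subunit of the NAD-dependent isocitrate dehydrogenase (ENSMUSG00000032279), held 14.2, 15.7 and 13.2 CPM with vehicle and 8.93, 7.79 and 9.36 CPM with trametinib. The ranges did not overlap, and the log2 fold change was −0.723 (SE 0.114, adjusted p 0.00186). The other subunits of that enzyme stood apart from it: Idh3b had a log2 fold change of −0.182 (SE 0.065, adjusted p 0.0583, and 0.0348 with the replicate block) and Idh3g one of −0.002 (SE 0.080, adjusted p 0.988). The log2 ratio of Idh3a to the sum of Idh3b and Idh3g, also chosen after the values were seen, went from −2.738 ± 0.1 to −3.347 ± 0.167 (exact permutation p 0.10, two-sided). Idh1, the cytosolic NADP-dependent isocitrate dehydrogenase, held 26.9, 35.0 and 35.5 CPM with vehicle and 40.1, 46.6 and 51.8 CPM with trametinib (log2 fold change 0.508, SE 0.131, adjusted p 0.0182). Replicate 1 was the lowest library of Idh1 in both groups, and with the replicate block the adjusted p was 0.00160. Idh1 missed the threshold when trametinib replicate 2 or 3 was left out (0.0642 or 0.0555). Idh2, its mitochondrial counterpart, moved the other way, from 16.6 ± 0.449 CPM with vehicle to 13.0 ± 1.03 with trametinib, a log2 fold change of −0.347 (SE 0.092, adjusted p 0.0189). Idh2 missed the threshold with DESeq2 (0.0547) and when vehicle replicate 1 or 2 (0.0716 or 0.0613) or trametinib replicate 2 or 3 (0.0642 or 0.0509) was left out. Its adjusted p ran from 0.0152 to 0.0716 over the alternatives. The ratio of Idh1 to Idh2, chosen after the values were seen, was 1.81-fold higher with trametinib (exact permutation p 0.10, two-sided). Aco1, the cytosolic aconitase that also acts as an iron-regulated RNA-binding protein, had a log2 fold change of 0.163 and did not pass (adjusted p 0.196).

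From alpha-ketoglutarate to succinate, Dlst alone of 5 members passed. Dlst, the lipoate-bearing core of the alpha-ketoglutarate dehydrogenase complex, held 91.4, 90.7 and 92.3 CPM with vehicle and 64.8, 65.1 and 72.5 CPM with trametinib. The vehicle libraries, replicate 3 included, lay within a narrow range above all trametinib libraries (log2 fold change −0.439, SE 0.066, adjusted p 0.00153). Its partner Ogdh, which takes up alpha-ketoglutarate, stood at 155.5 ± 3.58 and 160.4 ± 0.983 CPM (adjusted p 0.627). The succinyl-CoA ligase subunits Suclg1, Suclg2 and Sucla2 had log2 fold changes of −0.099, 0.104 and −0.064 and did not pass (adjusted p 0.331, 0.753 and 0.607). Dlat and Dlst, the acyltransferase cores of their complexes, therefore both fell, whereas Dld, which serves both, did not pass. Among 3 genes that make or attach the lipoate carried by these cores, Lipt2, an octanoyl transferase, fell from 21, 37 and 18 counts in the vehicle libraries to 3, 4 and 3 counts in the trametinib libraries (log2 fold change −2.862, SE 0.453, adjusted p 0.00194). Lias, the lipoate synthase, and Lipt1, the lipoyl transferase, did not pass (adjusted p 0.765 and 0.230).

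From fumarate to oxaloacetate, Mdh1, the cytosolic malate dehydrogenase, held 55.3, 60.3 and 54.8 CPM with vehicle and 70.6, 67.9 and 64.3 CPM with trametinib, without overlap (log2 fold change 0.251, SE 0.070, adjusted p 0.0233). Mdh1 missed the threshold when vehicle replicate 1 (0.0922) or trametinib replicate 1 or 2 (0.104 or 0.0627) was left out. Exons of Mdh1 overlap those of Wdpcp on the opposite strand over 52 bases. The mitochondrial counterpart Mdh2 had a log2 fold change of −0.001 (SE 0.078, adjusted p 0.997), a sign that turned with the scaling, and Fh1, the fumarase, one of −0.232 (SE 0.105, adjusted p 0.121). Neither malic enzyme passed: Me2, the mitochondrial one, held 14.8, 15.2 and 15.6 CPM with vehicle and 14.4, 17.2 and 16.7 CPM with trametinib (adjusted p 0.518). Me1, the cytosolic one, was highest in replicate 3 of both groups, at 10.8 and 11.1 CPM, against 5.74 to 7.92 CPM in the other libraries (log2 fold change −0.149, SE 0.280, adjusted p 0.715).

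Among the mitochondrial carriers, Slc25a1, which exports citrate to the cytosol, held 51.3, 54.0 and 54.0 CPM with vehicle and 65.9, 65.3 and 60.9 CPM with trametinib. All trametinib libraries were higher (log2 fold change 0.270, SE 0.066, adjusted p 0.0129). Slc25a1 missed the threshold when vehicle replicate 1 (0.0645) or trametinib replicate 1 (0.0654) was left out. Slc25a10, the dicarboxylate carrier, had a log2 fold change of 0.181 (SE 0.084, adjusted p 0.128). It passed under the replicate block (0.0342) and when vehicle replicate 3 was left out (0.0268). Slc25a11, at a log2 fold change of 0.055, did not pass (adjusted p 0.545).

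No member of the glutamate and transaminase group passed, and Got1 and Glud1 lay near the threshold. Got1, the cytosolic aspartate aminotransferase, held 56.5, 50.7 and 52.6 CPM with vehicle and 60.3, 60.2 and 62.9 CPM with trametinib (log2 fold change 0.198, SE 0.068, adjusted p 0.0503). Its groups did not overlap, and it passed with DESeq2 size factors (0.0434) and under the replicate block (0.0352). Got1 also passed with the filter of 1 CPM (0.0402) and with TMM without mitochondrial genes and the 10 most abundant genes (0.0498). Glud1, the glutamate dehydrogenase, had a log2 fold change of −0.229 (SE 0.080, adjusted p 0.0538), with 0.0397 under the block and 0.00950 without vehicle replicate 3. Got2, the mitochondrial aspartate aminotransferase, and Gpt2, the mitochondrial alanine aminotransferase, did not pass either, at log2 fold changes of 0.141 and −0.221 (adjusted p 0.175, 0.144). Got2 had an adjusted p of 0.0393 without vehicle replicate 3.

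Of 35 further genes around the cycle, 31 were tested, 5 rose and 4 fell, beside the 15.8% and 18.4% of all genes tested. Those not yet described lay in the supply and export of substrates. Slc16a3, which exports lactate, rose from 97.2 ± 5.29 to 152 ± 1.91 CPM (a log2 fold change 0.646, SE 0.067, adjusted p 0.000412). Slc25a12, the aspartate and glutamate carrier of the malate-aspartate shuttle, rose from 122 ± 4.55 to 153 ± 7.90 CPM (adjusted p 0.00796). Glul, the glutamine synthetase, rose 1.31-fold (adjusted p 0.00990), while Pck2, the mitochondrial phosphoenolpyruvate carboxykinase, fell, with a log2 fold change of −0.275 (adjusted p 0.0241). Pck2 missed the threshold with DESeq2 (0.0693) and when vehicle replicate 1 or 2 (0.0755 or 0.0524) or trametinib replicate 1 or 2 (0.0802 or 0.0925) was left out. With the replicate block 8 of these further genes rose, while the count over all genes tested went from 1787 to 2312. The further genes added were Sdhd, Ldha and Slc16a1, named after their values were seen, with adjusted p of 0.0445, 0.00207 and 0.0250 under the block.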

How the data were processed

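Ribosomal RNA was removed before sequencing, per the labels' protocols. The authors deposited raw counts of reads per gene in 1 table. The submitters' processing notes list featureCounts 1.6.4, HISAT2 2.1.0, R 3.6.0, DESeq2 1.24.0 and the build mm10. Which annotation and strand setting were used, and how multi-mapping reads were treated, is not given in the sources used here, and values of members with close paralogs or pseudogenes are less certain. Of 25354 entries, 310 that repeated an identifier with the same values were dropped, leaving 25044 genes. Symbols, positions and exon lengths came from GENCODE M21 (25033 identifiers found).

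After filterByExpr and TMM scaling, edgeR 4.0.16 (R 4.3.3) tested trametinib against vehicle with its quasi-likelihood F test (robust, no covariate, 4 residual df). P values were adjusted by Benjamini-Hochberg across the 11286 genes tested and called at 0.05. SE is the absolute log2 fold change over the square root of F. CPM are counts scaled to the TMM-adjusted library size, as mean ± SD (n = 3). The fit was tested on simulated data. It recovered 0 of 50 genes changed 1.25-fold, 25 of 50 at 1.5-fold, 37 of 50 at 2-fold and 48 of 50 at 4-fold. Of 10995 unchanged genes it called 5. A member that did not pass may therefore still differ by a small fold. Groups came from the labels. Libraries of the same replicate number deviated together across genes (correlations 0.339, 0.393 and 0.285, against −0.223 to −0.0724 for different numbers), so the numbers were taken to pair the samples on the data alone. The main fit has no block, and blocked values are printed where they change a call. The permutation tests of the ratios treat the libraries as unpaired, so their p-values make no allowance for such a pairing and would not hold under it. Alternatives were DESeq2 size factors, TMM computed without mitochondrial genes and the 10 most abundant genes, no filter, a filter of 1 CPM in 3 libraries, DESeq2 1.42.0, limma-voom (limma 3.58.1), a block on the replicate number, and each library left out in turn. No libraries held identical counts.

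Members and lists were chosen with earlier results of these data known. Values in every library are given for Acod1, for members past the threshold with an absolute log2 fold change of at least 0.5 and for the member with the smallest p of each role. All other members are given by summary values, and further genes of the pathway where they passed or adjoin the itaconate step. Some of these further genes and a ratio counted in the text are not reported here.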

Additional observations from a re-analysis of the deposited data

How the results depend on the processing

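Of the 13 called members, 9 passed in all 13 alternatives run (Acod1, Pdha1, Dlat, Pdk1, Pdk2, Pdk3, Pdp1, Idh3a and Dlst), and none of the 13 changed direction in any. Idh1, Idh2, Mdh1 and Slc25a1 lost their calls in at least 1 alternative. Over the libraries left out in turn, members that rose numbered 4 to 8 and members that fell 6 to 8, and with the replicate block 8 rose and 10 fell. The counts over all genes tested moved as well, from 1787 higher and 2082 lower in the main fit. They were 1068 to 2210 higher and 1360 to 2453 lower with a library left out, and 2312 and 2525 with the block. The block added Cs, Idh3b, Slc25a10, Glud1 and Got1 and changed no other call of a member. The log2 fold change of Acod1 ran from −1.038 to −0.905 and its adjusted p from 1.33e-19 to 0.00423. Among the further genes, those that rose numbered 8 with the replicate block and 3 to 5 with a library left out, and those that fell 2 to 6. The sign turned in some members that did not pass. Mdh2 had 0.011 with DESeq2 size factors, 0.010 with the filter of 1 CPM, 0.004 with DESeq2, 0.002 with limma-voom and 0.002 with the block, and −0.064 to 0.035 with a library left out. Idh3g had 0.009, 0.008, 0.002 and 0.001 with DESeq2 size factors, the filter of 1 CPM, DESeq2 and limma-voom, and −0.063 to 0.033 with a library left out. With a library left out, Mpc1 ran from −0.066 to 0.306, Pcx from −0.692 to 0.130, Suclg2 from −0.154 to 0.280 and Me1 from −0.502 to 0.055. Their causes were not tested. The median log2 fold change of all genes lay between −0.01 and 0.006 over the alternatives. With the longest transcript in place of the union of exons, Acod1 stayed the most abundant member in both groups, and the order of the members below it moved.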

Other observations

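The windows of 300 bases around the starts of the 34 members with a RefSeq promoter entry were searched on both strands for short motifs, chosen after the expression values were seen. The ETS motif CCGGAAG was in 5 of the 34 windows (14.7%, in Mpc1, Idh3b, Idh3g, Dlst and Glud1), against 8.86% of all 32851 windows. Of the 11 called members with a window, 1 held it (Dlst). The motif contains a CG dinucleotide, and the median CG ratio was 0.835 over member windows and 0.384 over all windows. The part of this in the difference was not tested. An E-box, CACGTG, was in 3 (Pdk2, Pcx and Slc25a1), against 7.15% of all windows. An NF-kappaB motif was in 1 (Dlat), against 1.63%. The AP-1 motif TGANTCA was in 2 (Me1 and Slc25a11), against 7.81%, and the FOXO motif GTAAACA in 0, against 3.65%. The NRF-1 motif was in 2 (Dld and Sucla2), the interferon response motif in 1 (Suclg2) and the nuclear receptor motif AAGGTCA in 1 (Got1), against 4.6%, 3.44% and 4.72% of all windows. The Acod1, Pdk1 and Pdk3 windows held no exact match to the fixed letter patterns used for these 8 motifs. Near matches were not searched for, so the absence of an exact match does not show that such sequence is lacking. A match is a description of the letters and not evidence of binding.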
